A study of Homo sapiens with 8 samples.

Results

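Genes for glucose uptake, glycolysis and the response to low oxygen were followed in the human line Panc-1, grown from a ductal carcinoma of the pancreas. Of the 41 genes chosen by name, 39 had a row in the table of 13307 genes. *SLC2A3* and *CA9* had none, so that their levels were not analysed here, though the promoter of *CA9* is counted below. All 39 passed the minimum on low values, which removed no gene. The cells were transfected with a non-targeting siRNA (siControl) or with siRNAs against *PHF13* (siPHF13), which encodes a chromatin reader of methylated histone H3. Cells of both kinds were sequenced untreated and after exposure to TGFβ at 10 ng/ml for 48 h (siControl_TGFβ and siPHF13_TGFβ), a growth factor known to drive epithelial-mesenchymal transition, with 2 libraries in each of the 4 groups. The cells carried no other modification by the labels. The libraries are called replicates in the labels, which do not say that they came from separate cultures, so that p-values measure the spread between these libraries.

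Glycolysis splits glucose into pyruvate in the cytosol, after uptake by transporters such as GLUT1, and lactate dehydrogenase and monocarboxylate transporters dispose of the product as lactate. Its genes are classical targets of the hypoxia-inducible factors (HIFs), dimers of an oxygen-regulated α subunit (HIF1α, from *HIF1A*, or HIF2α, from *EPAS1*) with a partner subunit. Prolyl hydroxylases (from the *EGLN* genes) mark the α subunits for destruction when oxygen is present. Pancreatic ductal carcinomas are known as poorly perfused tumours that rely heavily on glucose.

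HIF dimers bind a short core, ACGTG or GCGTG, near many of their targets. The cores within promoters are shown here for the α subunit gene that moved most (*EPAS1*), for the target whose TGFβ response was called different after depletion (*ANGPTL4*), for a glycolytic gene that was higher after depletion (*HK2*), for the gene of a kinase that was lower (*PDK3*) and for a long-studied glycolytic target (*LDHA*). The sequences come from RefSeq (GRCh38.p14) and each was located by an exact, single match in GRCh37, the build of the deposited data. Each line holds 225 bases on the strand of the gene, from 250 to 26 bases before the start site, and capitals mark the cores on either strand (CACGT or CACGC where the core lies on the opposite strand, and CACGTG where cores on both strands overlap).
EPAS1: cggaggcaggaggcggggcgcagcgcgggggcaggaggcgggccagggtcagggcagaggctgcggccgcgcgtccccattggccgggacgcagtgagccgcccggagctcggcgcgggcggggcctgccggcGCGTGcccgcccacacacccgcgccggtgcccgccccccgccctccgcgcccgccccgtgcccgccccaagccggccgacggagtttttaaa
ANGPTL4: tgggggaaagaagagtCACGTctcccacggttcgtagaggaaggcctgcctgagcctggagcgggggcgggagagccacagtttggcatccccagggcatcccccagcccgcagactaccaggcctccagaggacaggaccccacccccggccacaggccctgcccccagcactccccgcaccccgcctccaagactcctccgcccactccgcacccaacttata
HK2: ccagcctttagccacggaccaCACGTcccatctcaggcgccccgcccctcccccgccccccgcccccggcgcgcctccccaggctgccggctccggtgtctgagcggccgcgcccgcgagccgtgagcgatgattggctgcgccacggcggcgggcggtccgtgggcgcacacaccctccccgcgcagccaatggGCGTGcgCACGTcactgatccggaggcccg
PDK3: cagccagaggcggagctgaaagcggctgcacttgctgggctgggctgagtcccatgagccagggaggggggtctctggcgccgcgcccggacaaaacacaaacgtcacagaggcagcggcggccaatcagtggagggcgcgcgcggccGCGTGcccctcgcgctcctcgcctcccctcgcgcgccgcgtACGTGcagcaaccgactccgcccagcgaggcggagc
LDHA: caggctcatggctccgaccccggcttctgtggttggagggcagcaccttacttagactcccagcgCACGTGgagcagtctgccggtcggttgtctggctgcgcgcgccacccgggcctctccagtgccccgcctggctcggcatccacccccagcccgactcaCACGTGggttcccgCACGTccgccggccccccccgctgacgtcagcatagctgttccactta

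All 5 stretches lie on the plus strand. The *EPAS1* stretch (chr2:46524296-46524520) falls in introns of longer *EPAS1* transcripts, and the *ANGPTL4* stretch (chr19:8428789-8429013) in introns of longer *ANGPTL4* transcripts. The *HK2* stretch (chr2:75061004-75061228) lies upstream of the gene and overlaps an exon of the divergent transcript HK2-DT, whereas the *LDHA* stretch (chr11:18415860-18416084) lies upstream with no annotated exon. The *PDK3* stretch (chrX:24483153-24483377) is upstream except for its last bases, which are the first exon of another *PDK3* transcript. Over the full windows of 300 bases (250 before the start and 50 after it), *LDHA* held 6 cores, *HK2* 3, *PDK3* 2, and *EPAS1* and *ANGPTL4* 1 each, at the first start site where RefSeq lists several. The stretches shown are those of the first sites. At the second start site *HK2* held 6 cores and *LDHA* 1, so that the order of these genes depends on the site.

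RefSeq promoters matched 36 of the 41 chosen genes, with 65 start sites. Either core was present in 67.7% of these promoters against 48.4% of all 35116 promoters in the table. ACGTG was present in 40.0% against 21.4%, GCGTG in 41.5% against 36.5%, and the palindrome CACGTG, which is counted with ACGTG, in 12.3% against 7.26%. *HK2*, which was higher after depletion, and *LDHA*, whose level was lower, held several cores each, and *EGLN3*, which was lower, held 0. The genes were chosen by name, many of them as HIF targets, so that more cores than in all promoters could follow from the choice. The promoters of the whole table were not matched for base composition or expression. Genes with several start sites count several times, *HK1* and *PFKM* with 7 each. A match of letters is a description of the window and no measure of binding.

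**Figure D1:**
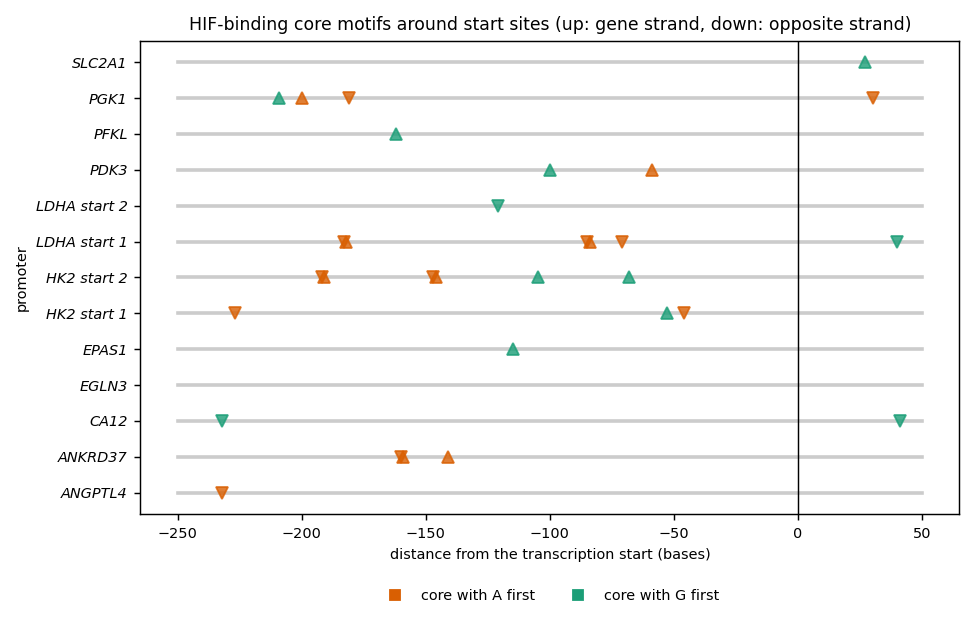
Position of ACGTG (orange) and GCGTG (green) cores in promoters of genes past the threshold in any comparison for which a RefSeq promoter was found, with *LDHA* and *PGK1* for comparison. The x axis is the distance in bases from the start site and triangles point up for the strand of the gene and down for the opposite strand. The first start site of *LDHA* holds 6 cores and that of *EGLN3* holds 0.

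The values are normalized counts, that is exon reads of a gene divided by a size factor of the library. Between 39196214 and 46700806 reads per library lay on the 13307 genes, and the 39 genes made up between 1.79% and 1.98% of the values. The targeted gene *PHF13* stood at 1804 and 1662.4 in siControl and at 524.2 and 558.3 in siPHF13, and at 1585.9 and 1709.5 in siControl_TGFβ and 512.8 and 529.4 in siPHF13_TGFβ, so that every library fell on the side its label gives. The keratin genes *KRT8*, *KRT18* and *KRT19* of ductal epithelium were high in every library. The other listed epithelial markers stood far lower, at 378.9 to 488.9 for *KRT7*, 115.2 to 305.8 for *EPCAM* and 78.8 to 459.5 for *CDH1*. The summed level of the 6 epithelial markers was 193826.9 to 204434.4 in siControl, 171870.5 to 194633.1 in siPHF13, 121809.7 to 127489.8 in siControl_TGFβ and 138487.6 to 150248.2 in siPHF13_TGFβ. *KRT8* made up most of that sum, behind which single markers went both ways after depletion without TGFβ, with *EPCAM* called higher (0.78) and *CDH1* called lower (-1.45). Of 14 markers of immune, endothelial, stromal, acinar and endocrine cells, 3 (*CD14*, *COL1A1*, *PDGFRB*) had a row, and *PTPRC*, *PECAM1*, *DCN*, *PRSS1* and *INS* had none. Their sum was 3449.6 to 3536.5 in siControl, 1964 to 2012.2 in siPHF13, 15383.1 to 16515.2 in siControl_TGFβ and 4789.4 to 4972.3 in siPHF13_TGFβ. Nearly all of this second sum was *COL1A1*, a collagen gene that TGFβ is known to raise, and the part of these shifts in the results on single genes was not tested. In bulk RNA, fewer cells with a transcript and less of it per cell cannot be told apart.

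Differences are given as log2 fold changes with their standard error from one limma fit of log2(normalized count + 1) over the 8 libraries, and Benjamini-Hochberg adjustment of the p-values covered all 13307 genes. A gene was called changed at an adjusted p under 0.05 with an absolute log2 fold change over 0.58. Of the 39 genes, 11 (28.2%) were called in at least 1 of the 5 tests, against 27.3% of all genes, and 28 in none. Among those 28 the log2 fold change stayed between -0.50 and 0.48 after depletion without TGFβ, between -0.46 and 0.45 after depletion with TGFβ, and between -0.24 and 0.23 after TGFβ in siControl cells.

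*PHF13* depletion without TGFβ split the genes rather than moving them one way. Called higher were 5 genes, namely *SLC2A1* (the glucose transporter GLUT1), *HK2* (a hexokinase), *PFKL* (a phosphofructokinase), *NDRG1* and *ANKRD37*, which is 12.8% of the 39 against 7.95% of all genes. Called lower were 3 genes, *EPAS1*, *EGLN3* and *PDK3*, which is 7.69% against 10.4% of all genes. The shares called are thus near those of the whole table in both directions, and the median log2 fold change of the 39 genes was 0.065 against -0.001 over all genes. Without the threshold on the fold, 12 genes were higher at an adjusted p under 0.05 (30.8% against 23.1% of all genes) and 9 lower (23.1% against 24.3%).

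Depletion in the presence of TGFβ was measured in libraries that the previous comparison does not use. Here 3 genes were called higher (*HK2*, *PFKL*, *ANKRD37*), 7.69% of the 39 against 8.81% of all genes. A further 4 were called lower (*EPAS1*, *EGLN3*, *PDK3*, *ANGPTL4*), 10.3% against 11.7% of all genes. The median was -0.009 against 0.003 over all genes, and at an adjusted p under 0.05 regardless of fold 12 were higher (30.8% against 24.5% of all genes) and 9 lower (23.1% against 25.9%). Across the 39 genes, the log2 fold changes after depletion without and with TGFβ had a Pearson correlation of 0.89 (0.81 over all 13307 genes), and 36 of 39 had the same sign (84.5% of all genes). Genes are not independent replicates, and all libraries come from one cell line, so these are descriptions.

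**Figure D2:**
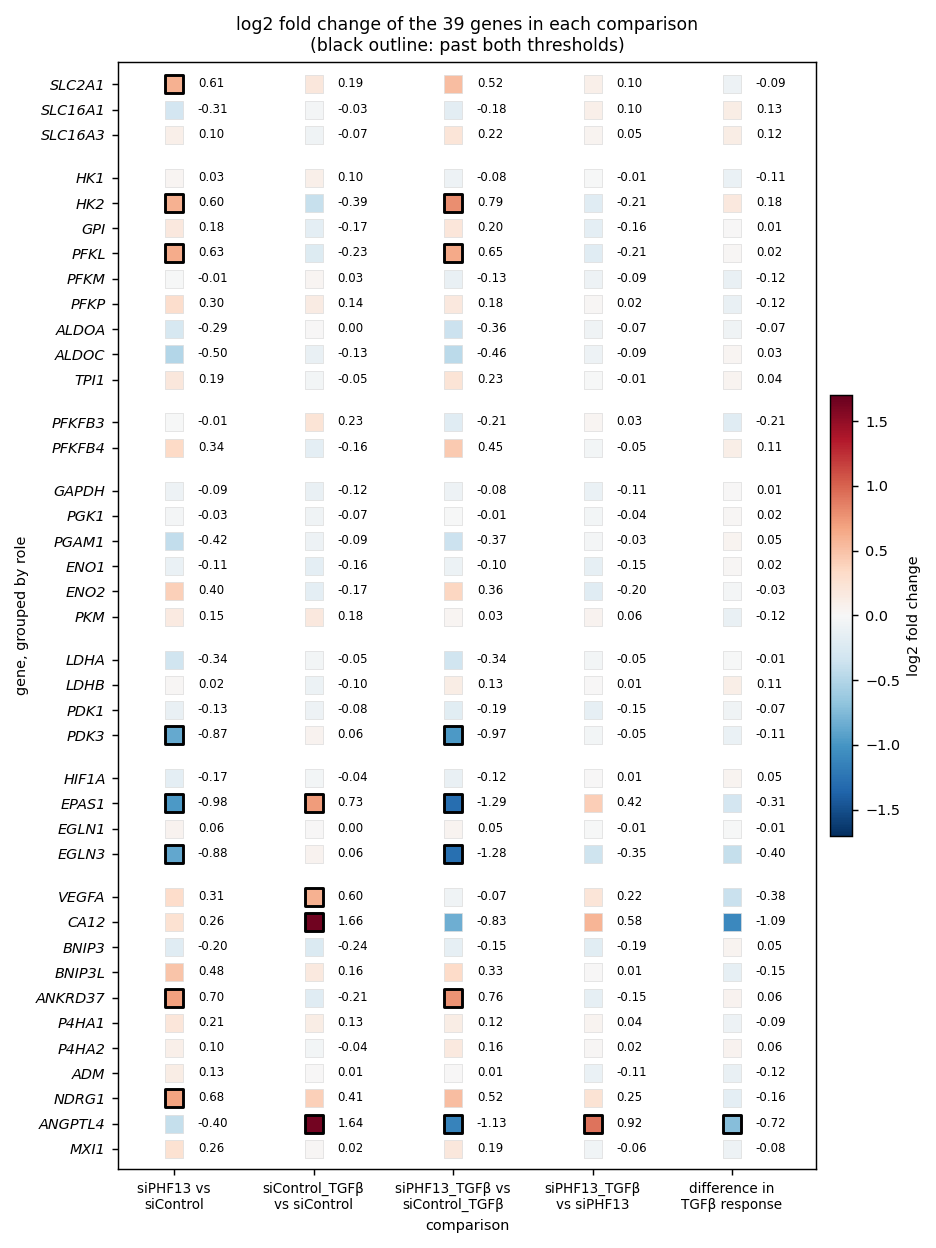
log2 fold changes of the 39 genes (rows, grouped by role) in the 4 comparisons of groups and in the difference between both TGFβ responses (columns). Colour runs from blue (lower) to red (higher) and a black outline marks an adjusted p under 0.05 with an absolute log2 fold change over 0.58. *EPAS1* is the gene with the lowest value in both depletion columns, at -0.98 and -1.29.

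The HIF α subunits differed in their response. *EPAS1* (chr2:46520806-46613836, plus strand) had normalized counts of 7692.1 and 7533.3 in siControl, 3661.3 and 4087.8 in siPHF13, 13136.5 and 12126.7 in siControl_TGFβ, and 5522.9 and 4821.1 in siPHF13_TGFβ. No 2 groups overlapped, and both groups depleted of PHF13 lay below both groups with the control siRNA. With 2 libraries a group, a lack of overlap between 2 groups says little by itself. The hexokinase gene *HK1*, for example, had none after depletion without TGFβ, at a log2 fold change of 0.03 (limma adjusted p = 0.711). Depletion lowered *EPAS1* by a log2 fold change of -0.98 ± 0.08 (SE, n = 2 libraries per group, limma adjusted p = 3.56e-07) without TGFβ and of -1.29 ± 0.08 (limma adjusted p = 2.52e-08) with TGFβ. TGFβ raised it by 0.73 ± 0.08 in siControl cells (limma adjusted p = 2.4e-05), and by 0.42 ± 0.08 in siPHF13 cells, which passed the test (limma adjusted p = 0.00758) but not the threshold on the fold. The difference between both TGFβ responses was -0.31 ± 0.11 and did not pass over all genes (limma adjusted p = 0.323). The 3 calls of *EPAS1* held under all 17 alternatives of the processing. Among these, the runs with no minimum (which removed no gene) and no threshold on the fold could not end a call.

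*HIF1A* stood at 14406.3 and 15039.6 in siControl, 12271 and 13961.2 in siPHF13, 14705.1 and 13934.9 in siControl_TGFβ, and 14312.4 and 12190 in siPHF13_TGFβ. It was called in no comparison. Its log2 fold change after depletion was -0.17 (95% interval -0.34 to 0.00, limma adjusted p = 0.0997) without TGFβ and -0.12 (-0.29 to 0.06, limma adjusted p = 0.25) with TGFβ, and after TGFβ in siControl cells it was -0.04 (-0.21 to 0.13). These intervals lie far from the change of *EPAS1* in the same libraries. Antisense transcripts overlap *HIF1A* and the strand setting of the counting is not given in the sources used here, so their reads may be included. Per kilobase of the canonical transcript, the level of *HIF1A* was 3731 ± 113 (SD, n = 2) in siControl and 3324 ± 303 in siPHF13, against 1477 ± 21.8 and 752 ± 58.5 for *EPAS1*. In siControl_TGFβ the levels per kilobase were 3629 ± 138 for *HIF1A* and 2450 ± 139 for *EPAS1*. The transcript of *HIF1A* was therefore the more abundant one in each group, and the gap between both genes was narrowest in siControl_TGFβ.

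Of both prolyl hydroxylase genes, *EGLN3*, itself a known HIF target, was low and fell after depletion. Its normalized counts were 83.5 and 74.8 in siControl, 44.8 and 40.4 in siPHF13, 85.2 and 79.2 in siControl_TGFβ, and 23.7 and 46.2 in siPHF13_TGFβ. Both depleted groups lay below both control groups. The log2 fold change was -0.88 ± 0.33 without TGFβ (limma adjusted p = 0.0436), a call that the replicate block ended (adjusted p = 0.0526 with the block), and -1.28 ± 0.33 with TGFβ (limma adjusted p = 0.00558). Without siPHF13_TGFβ replicate 1 the latter was -0.82 and was not called. *EGLN1*, the main oxygen sensor of most tissues, lay between 4838.1 and 5469.9 in all libraries, with log2 fold changes of 0.06 (95% interval -0.08 to 0.21) and 0.05 (-0.09 to 0.20) after depletion without and with TGFβ.

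Of the 3 transporter genes 1, and of the 9 genes from hexokinase to triose phosphate isomerase 2, were called higher by limma after depletion without TGFβ, and 0 of both sets lower, where 7.95% of all genes were called higher and 10.4% lower. These sets are too small to be read against those shares, and 2 of the 9 enzymes were lower at an adjusted p under 0.05 regardless of fold. *SLC2A1* stood at 4565 and 4287.9 in siControl, 7273.9 and 6254.1 in siPHF13, 5399.1 and 4708.7 in siControl_TGFβ, and 6750.3 and 7756.7 in siPHF13_TGFβ. Both depleted groups lay above both control groups. Its log2 fold change was 0.61 ± 0.09 without TGFβ (limma adjusted p = 9.7e-05). With TGFβ it was 0.52 ± 0.09, which passed the test (limma adjusted p = 0.000308) but not the threshold on the fold, and the difference between the TGFβ responses of both kinds of cells was -0.09 (95% interval -0.36 to 0.19). Without siControl_TGFβ replicate 1 or siPHF13_TGFβ replicate 1 the value with TGFβ was 0.62 and was called.

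*HK2*, the inducible hexokinase that phosphorylates glucose, stood at 2241.2 and 2130.9 in siControl, 3625.5 and 3035.3 in siPHF13, 1634.4 and 1695.1 in siControl_TGFβ, and 2698.8 and 3050.1 in siPHF13_TGFβ. Again both depleted groups lay above both control groups, and siControl_TGFβ was the lowest group. The log2 fold change after depletion was 0.60 ± 0.09 (limma adjusted p = 0.000104) without TGFβ and 0.79 ± 0.09 (limma adjusted p = 8.8e-06) with TGFβ. TGFβ itself moved *HK2* by -0.39 ± 0.09 in siControl cells (limma adjusted p = 0.0088), below the threshold on the fold. *HK1*, the housekeeping isozyme, had a log2 fold change of 0.03 (95% interval -0.10 to 0.16) after depletion without TGFβ, and its level per kilobase in siControl, 2817 ± 7.71, was well above the 389 ± 13.9 of *HK2*.

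The 3 phosphofructokinase genes encode subunits of the same enzyme. *PFKL*, the liver-type subunit, stood at 2380.7 and 2325.5 in siControl, 3593.7 and 3706.1 in siPHF13, 2071 and 1937.8 in siControl_TGFβ, and 2926.6 and 3383.2 in siPHF13_TGFβ. The depleted groups lay above the control groups, by a log2 fold change of 0.63 ± 0.08 (limma adjusted p = 1.98e-05) without TGFβ and 0.65 ± 0.08 (limma adjusted p = 1.35e-05) with TGFβ. Both values lay close to the threshold on the fold, and correcting each library for transcript length and GC content, an alternative chosen after seeing the data, brought them to 0.56 and 0.55, under it, as did leaving out siPHF13_TGFβ replicate 2 for the latter (0.55). *PFKP*, the platelet-type subunit and the most abundant per kilobase (6633 ± 7.28 in siControl, against 809 ± 13.4 for *PFKL* and 786 ± 58.2 for *PFKM*), passed the test at smaller changes of 0.30 and 0.18. The muscle-type *PFKM* had a log2 fold change of -0.01 (95% interval -0.21 to 0.19) without TGFβ.

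Other genes of the upper pathway moved by less than the threshold on the fold, in both directions. Higher at an adjusted p under 0.05 in both depletion comparisons were *GPI* (glucose-6-phosphate isomerase, 0.18 and 0.20), *TPI1* (triose phosphate isomerase, 0.19 and 0.23) and *PFKFB4* (which sets the level of an activator of phosphofructokinase, 0.34 and 0.45). Lower were the aldolases *ALDOA* (-0.29 and -0.36) and *ALDOC* (-0.50 and -0.46). *ALDOC* lay near the threshold on the fold: without TGFβ it was called lower by DESeq2 on 7 libraries (-0.58) and after the correction for length and GC content (-0.60), and with TGFβ after that correction (-0.61), without siControl_TGFβ replicate 2 (-0.71) and without siPHF13_TGFβ replicate 2 (-0.58). *PFKFB4* was called higher with TGFβ without siControl_TGFβ replicate 1 (0.60). *PFKFB3* had a log2 fold change of -0.01 and -0.21 and passed in neither. The transporters of lactate were split as well, with *SLC16A1* (MCT1) at -0.31 and -0.18, both past the test, and *SLC16A3* (MCT4) at 0.10 and 0.22, past the test with TGFβ.

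The later steps of the pathway, from *GAPDH* to pyruvate kinase, held the most abundant transcripts. None of these 6 genes was called in any comparison, where 27.3% of all genes were called in at least 1 of the 5 tests. The set is too small to be read against that share. Normalized counts in siControl were 148100 ± 848 (SD, n = 2) for *PKM* (pyruvate kinase), 130900 ± 2470 for *GAPDH* and 111400 ± 1200 for *ENO1* (enolase). *PGAM1* (phosphoglycerate mutase) was lower by -0.42 and -0.37 after depletion without and with TGFβ, whereas *ENO2*, the neuronal enolase, was higher by 0.40 and 0.36, each with an adjusted p under 0.05. *GAPDH*, often used as a loading control, had a log2 fold change of -0.09 (95% interval -0.24 to 0.06) and -0.08 (-0.23 to 0.07), and *PGK1* (phosphoglycerate kinase) one of -0.03 and -0.01. Processed pseudogenes exist for several of these genes, 65 of them for *GAPDH* and 13 for *PGAM1* by name in the annotation, and reads shared with them make the values of those genes less certain.

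At the branch from pyruvate, *LDHA*, the subunit that favours lactate formation, stood at 100983.3 and 103707 in siControl, 80290.1 and 81779.5 in siPHF13, 97698.3 and 100237.1 in siControl_TGFβ, and 71991.8 and 84542.6 in siPHF13_TGFβ. Both depleted groups lay below both control groups, by -0.34 ± 0.07 in each comparison (limma adjusted p = 0.00203 and 0.00162), under the threshold on the fold. *LDHB*, the other subunit, had a log2 fold change of 0.02 (95% interval -0.18 to 0.22) and 0.13 (-0.07 to 0.33). *LDHA* also has 6 annotated pseudogenes.

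*PDK3*, one of the kinases that switch off pyruvate dehydrogenase, had normalized counts of 205.8 and 184.7 in siControl, 93.5 and 121.3 in siPHF13, 216.7 and 190.3 in siControl_TGFβ, and 112.3 and 94.3 in siPHF13_TGFβ. The depleted groups lay below the control groups with no overlap. The log2 fold change was -0.87 ± 0.20 (limma adjusted p = 0.00316) without TGFβ and -0.97 ± 0.20 (limma adjusted p = 0.00126) with TGFβ. *PDK1*, the family member best known as a HIF target, had a log2 fold change of -0.13 (95% interval -0.31 to 0.05) and -0.19 (-0.38 to -0.01), and neither passed over all genes (limma adjusted p = 0.231 and 0.0716).

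**Figure D3:**
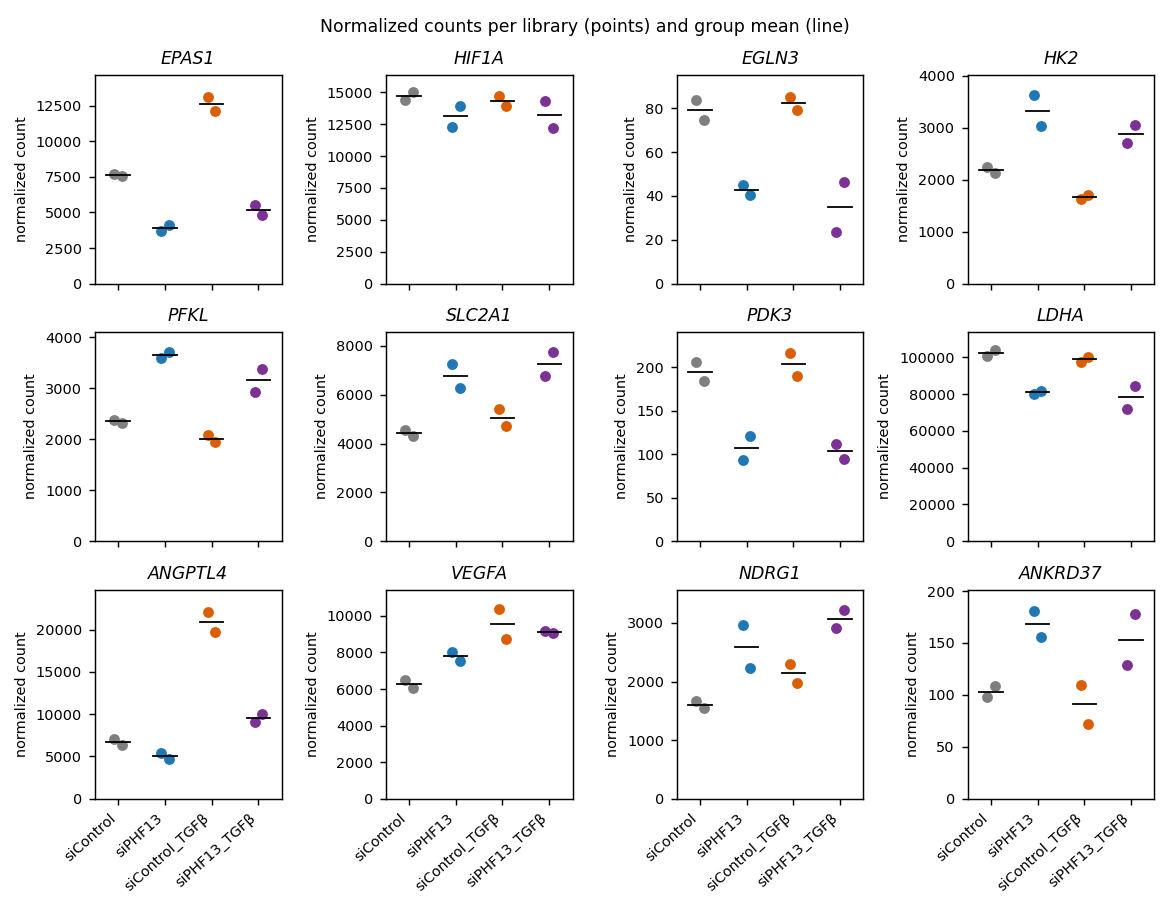
Normalized counts of 12 genes by group. Each point is a library, the line is the group mean and every y axis starts at 0. *EPAS1*, *EGLN3*, *PDK3* and *LDHA* lie lower in both siPHF13 groups, *HK2*, *PFKL*, *SLC2A1*, *NDRG1* and *ANKRD37* lie higher than the siControl group treated alike, and *ANGPTL4* lies highest in siControl_TGFβ, at 22023.1 and 19715.4.

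Of the 11 HIF target genes outside glycolysis, *NDRG1*, a stress-response gene, stood at 1658.9 and 1547.9 in siControl, 2970 and 2222.5 in siPHF13, 2299.6 and 1973.8 in siControl_TGFβ, and 2918 and 3219.5 in siPHF13_TGFβ. The siControl libraries were the lowest, and siPHF13 replicate 2 lay within the range of siControl_TGFβ. Depletion changed *NDRG1* by 0.68 ± 0.12 without TGFβ (limma adjusted p = 0.000324). With TGFβ the value was 0.52 ± 0.12 (limma adjusted p = 0.00206), under the threshold on the fold, and it was called without siControl_TGFβ replicate 1 (0.63) or siPHF13_TGFβ replicate 1 (0.60). *ANKRD37* was low, at 97.7 and 108.1 in siControl, 181 and 155.9 in siPHF13, 110 and 72 in siControl_TGFβ, and 128.5 and 178.1 in siPHF13_TGFβ. Its depleted groups lay above the control groups, by 0.70 ± 0.25 (limma adjusted p = 0.0301) without TGFβ and 0.76 ± 0.25 (limma adjusted p = 0.0197) with TGFβ. The latter call ended with the correction for length and GC content (0.56, adjusted p = 0.0608), without siControl_TGFβ replicate 2 (0.46) and without siPHF13_TGFβ replicate 2 (0.52). *UFSP2* overlaps *ANKRD37* on the opposite strand, and without the strand setting their reads cannot be told apart. Among other called genes, annotated genes without a symbol overlap *SLC2A1* and *VEGFA* on the opposite strand and *NDRG1* on the same strand. The values of these genes carry a like uncertainty.

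The calls without TGFβ leaned on siPHF13 replicate 1. Without it *SLC2A1* (0.50), *HK2* (0.47) and *NDRG1* (0.47) fell under the threshold on the fold, and *EGLN3* (-0.95, limma adjusted p = 0.0934) and *ANKRD37* (0.60, limma adjusted p = 0.157) no longer passed the test, which left 3 of the 8 calls. Without siControl replicate 2, 4 calls were left, and those of *SLC2A1* (0.56), *HK2* (0.57), *EGLN3* (-0.96, limma adjusted p = 0.11) and *ANKRD37* (0.78, limma adjusted p = 0.0744) were lost. *EGLN3* and *ANKRD37* also lost their calls without siControl replicate 1 (limma adjusted p = 0.182 and 0.141) or siPHF13 replicate 2 (limma adjusted p = 0.145 and 0.0577), and *EGLN3* without either siControl_TGFβ library (limma adjusted p = 0.0569 and 0.0563).

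TGFβ in siControl cells changed few of the genes. Called higher were 4, *ANGPTL4*, *CA12*, *EPAS1* and *VEGFA*, which is 10.3% of the 39 against 3.27% of all genes. Regardless of fold, 5 of the 39 were higher at an adjusted p under 0.05, where 1226 of all 13307 genes were. The further gene was *NDRG1* (0.41, limma adjusted p = 0.0288). Called lower were 0 by limma, against 1.52% of all genes, with 1 gene (*HK2*) lower at an adjusted p under 0.05 regardless of fold, where 6.67% of all genes were. The median was -0.027 against -0.006 over all genes. None of the 24 glycolytic, transport and lactate or pyruvate genes was called.

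*ANGPTL4*, which encodes a secreted inhibitor of lipoprotein lipase and is known as a target of both HIFs and TGFβ, stood at 7003.5 and 6372.8 in siControl, 5383 and 4734 in siPHF13, 22023.1 and 19715.4 in siControl_TGFβ, and 9063.7 and 10051.3 in siPHF13_TGFβ. No groups overlapped, and siPHF13_TGFβ lay between the untreated groups and siControl_TGFβ. TGFβ raised it by 1.64 ± 0.08 in siControl cells (limma adjusted p = 1.53e-08) and by 0.92 ± 0.08 in siPHF13 cells (limma adjusted p = 1.57e-05). The difference between both responses was -0.72 ± 0.12 (95% interval -0.97 to -0.47, limma adjusted p = 0.0137). Depletion changed the gene by -0.40 ± 0.08 without TGFβ, under the threshold on the fold (limma adjusted p = 0.00111), and by -1.13 ± 0.08 with TGFβ (limma adjusted p = 1.37e-07). The difference between the responses was no longer called without siControl replicate 2 (-0.65, adjusted p = 0.18), siPHF13 replicate 1 (-0.63, adjusted p = 0.091) or siControl_TGFβ replicate 1 (-0.64, adjusted p = 0.11), nor by edgeR on 7 libraries (-0.62, adjusted p = 0.0929).

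*VEGFA*, the angiogenic growth factor gene, stood at 6496.1 and 6078.2 in siControl, 8042.7 and 7560.1 in siPHF13, 10374.4 and 8741.7 in siControl_TGFβ, and 9151.2 and 9052.3 in siPHF13_TGFβ. The siControl group was the lowest, siPHF13 came next, and both groups with TGFβ overlapped. TGFβ raised it by 0.60 ± 0.08 in siControl cells (limma adjusted p = 0.000123), close to the threshold on the fold. The value was 0.55 without siControl replicate 2 and 0.48 without siControl_TGFβ replicate 1. In siPHF13 cells the difference was 0.22 ± 0.08 (limma adjusted p = 0.176), and the difference between both responses, -0.38 ± 0.11, did not pass over all genes (limma adjusted p = 0.212). After depletion *VEGFA* had a log2 fold change of 0.31 without TGFβ (limma adjusted p = 0.00439) and of -0.07 (95% interval -0.23 to 0.10) with it.

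*CA12*, a membrane carbonic anhydrase gene, was near the floor of the table, at 19 and 12.6 in siControl, 20.9 and 16.8 in siPHF13, 81.9 and 31.9 in siControl_TGFβ, and 19.4 and 41.4 in siPHF13_TGFβ. A single library, siControl_TGFβ replicate 1, stood far above the rest. The rise after TGFβ in siControl cells was 1.66 ± 0.53 (limma adjusted p = 0.0486), and it was 1.00 (limma adjusted p = 0.402) without that library. With the replicate block its adjusted p was 0.0588.

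The remaining HIF targets were called in no comparison. *BNIP3L*, a mitophagy receptor gene, was higher after depletion by 0.48 (limma adjusted p = 7.81e-05) without and 0.33 (limma adjusted p = 0.00145) with TGFβ. The related *BNIP3* had a log2 fold change of -0.20 (95% interval -0.38 to -0.02, limma adjusted p = 0.0693) without TGFβ. For *BNIP3* the annotation holds 44 pseudogenes by name, and reads shared with them make its values less certain. *P4HA1* and *P4HA2* (collagen prolyl hydroxylases), *ADM* (adrenomedullin) and *MXI1* (a MYC antagonist) had log2 fold changes of 0.21, 0.10, 0.13 and 0.26 after depletion without TGFβ, and none passed the test.

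In siPHF13 cells TGFβ led to the call of 1 gene, *ANGPTL4*, which is 2.56% of the 39 against 1.13% of all genes called higher. Called lower were 0 by limma, with 0.218% of all genes called lower and 0 of the 39 lower at an adjusted p under 0.05, where 0.857% of all genes were. Of the difference between both TGFβ responses, 0 of the 39 were called higher and 1 (*ANGPTL4*, 2.56%) was called lower, against 0.0601% and 0.248% of all genes. The median log2 fold change was -0.032 against -0.008 for TGFβ in siPHF13 cells, and -0.031 against -0.007 for the difference. TGFβ in siControl and in siPHF13 cells, which share no library, had log2 fold changes that correlated over the 39 genes at a Pearson value of 0.92 (0.52 over all genes), and 26 of 39 had the same sign (69% of all genes). The 28 genes called in no test stayed between -0.24 and 0.23 in siControl cells and between -0.2 and 0.1 in siPHF13 cells. The correlation thus leans on a few larger changes, such as *ANGPTL4* (1.64 and 0.92), *EPAS1* (0.73 and 0.42) and *CA12* (1.66 and 0.58, near the floor).

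**Figure D4:**
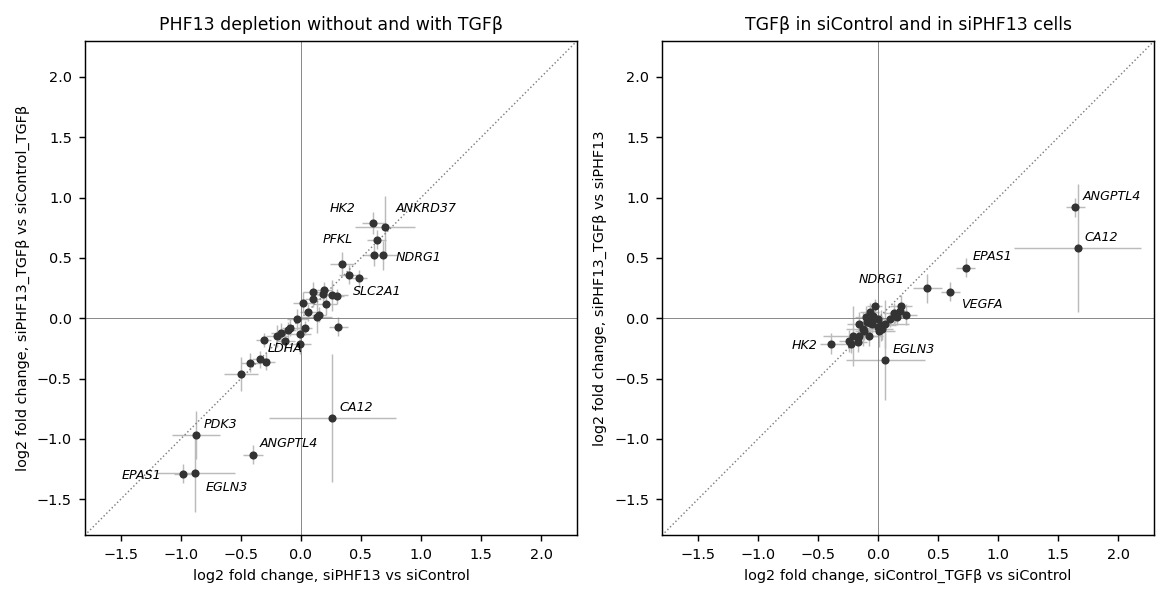
log2 fold changes of the 39 genes with standard errors (grey bars). Left, depletion without TGFβ (x axis) against depletion with TGFβ (y axis), and right, TGFβ in siControl cells (x axis) against TGFβ in siPHF13 cells (y axis), with a dotted line at equal values. *ANGPTL4* lies below that line in both panels, at -0.40 and -1.13 on the left and at 1.64 and 0.92 on the right.

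Of 95 further genes of glycolysis, glycogen, pyruvate and pentose phosphate metabolism and of the HIF pathway, 88 had a row. Depletion without TGFβ gave 9 called higher (10.2% against 7.95% of all genes) and 5 lower (5.68% against 10.4%). The 8 with the largest changes were *LOX* (a collagen crosslinking enzyme, 1.71), *SLC2A10* (a sugar transporter, 1.58), *TGFA* (an EGF receptor ligand, -1.52), *NOS3* (endothelial nitric oxide synthase, 1.20), *SLC2A12* (a sugar transporter, 1.15), *PGD* (an enzyme of the pentose phosphate pathway, -1.08), *STC1* (stanniocalcin, 0.98) and *SLC6A8* (the creatine transporter, 0.94). *PGD* was the most abundant of these, at 10463.5 and 10822.9 in siControl and 5005.1 and 5070.3 in siPHF13 (limma adjusted p = 1.5e-08). *SLC2A10* rested on normalized counts of 10.4 and 4.5 in siControl, *NOS3* on 25.6 and 20.7, and *TGFA* on 68.3 and 66.7.

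With TGFβ, depletion gave 12 of the 88 called higher (13.6% against 8.81% of all genes) and 6 lower (6.82% against 11.7%). The largest changes were those of *TGFA* (-2.03), *NOS3* (1.55), *LOX* (1.5), *PGD* (-1.18), *PGM2* (a phosphopentomutase, -1.07), *CITED2* (which competes with HIF α subunits for their coactivator, 1.00), *SLC2A12* (1.00) and *STC1* (0.97). The changes of *TGFA* and *NOS3* rested on low counts, each with a standard error of 0.4. In siControl_TGFβ *TGFA* stood at 67.9 and 76.1 and *NOS3* at 22.6 and 17.5, and in siPHF13_TGFβ at 14 and 20.2 and at 55.1 and 65.4. *CITED2* stood at 2545.4 and 1972.8 in siControl_TGFβ and at 4786.6 and 4209.9 in siPHF13_TGFβ (limma adjusted p = 3.62e-06).

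TGFβ in siControl cells gave 3 of the 88 called higher (3.41% against 3.27% of all genes) and 2 lower (2.27% against 1.52%), shares near those of the whole table. Among these were *BPGM* (bisphosphoglycerate mutase, 1.59), *BHLHE40* (a repressor of transcription, 0.73), *PDK4* (a kinase of pyruvate dehydrogenase, -1.10) and *RORA* (a nuclear receptor, -0.92). *BPGM* rose from 1437.9 and 1418.2 in siControl to 4382.4 and 4229.4 in siControl_TGFβ (limma adjusted p = 2.76e-09). In siPHF13 cells TGFβ gave 2 higher (2.27% against 1.13%) and 1 lower (1.14% against 0.218%), among them *BPGM* (1.09) and *PDK4* (-0.74). For the difference between both responses 0 of the 88 were called by limma, with 2 lower at an adjusted p under 0.05 regardless of fold, where 0.323% of all genes were.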

How the data were processed

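Poly(A) mRNA of 8 Panc-1 libraries was analysed. The authors trimmed paired-end reads with Trim Galore 0.4.1, mapped them with STAR 2.7.0 (hg19 transcriptome), counted them on exons with htseq-count 0.12.4 and normalized with DESeq2. The deposited values are a signal, counts divided by a DESeq2 size factor (13307 genes). The strand setting, annotation release and DESeq2 version are not given in the sources used here. Tables of the authors' own comparisons (log2 fold changes, p-values) were not used. Columns were matched to groups by name, NT (non-targeting) being read as siControl.

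All 5 comparisons came from one limma 3.58.1 fit (R 4.3.3) with a trended prior variance on log2(normalized count + 1), with a minimum of 10 in 2 libraries. Fold changes on this scale understate those of low genes. All values are whole multiples of the worth of 1 read (tolerance 0.1). In siPHF13 replicate 1 that step was 0.995, and a rule set for the count models left out libraries with a step so near 1. Its values were whole multiples like those of the others, but edgeR 4.0.16 and DESeq2 1.42.0 used only the other 7 libraries. Other alternatives were a pseudocount of 5, no minimum, TMM rescaling, a replicate block, no fold threshold, a fit of only the libraries compared, each library left out and, chosen after seeing the data, correction of each library for transcript length and GC content (splines with 5 degrees of freedom, 98.0% of genes matched).

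Values per library are given for members called in any test and both HIF α subunits, and LDHA was added after its values were seen. Of the other pathway genes, at most 8 called ones per comparison are named, by absolute log2 fold change, and 1 such gene is not reported here. The members and lists were chosen with earlier results of these data known. Positions and transcript lengths come from GENCODE 44 lifted to GRCh37.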

Additional observations from a re-analysis of the deposited data

Results flagged for a closer look

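The response of *ANGPTL4* to TGFβ differed between siPHF13 and siControl cells by the test of the difference itself, at -0.72 on the log2 scale (limma adjusted p = 0.0137). It was the only one of the 39 genes with such a result, and its value lay between -0.81 and -0.62 over 16 alternatives, in 4 of which it was no longer called.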

How the results depend on the processing

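With limma, 8 of the 39 genes were called for depletion without TGFβ, 4 for TGFβ in siControl cells, 7 for depletion with TGFβ, 1 for TGFβ in siPHF13 cells and 1 for the difference between both responses. Of 21 calls followed, 8 held in every alternative run (*EPAS1* in 3 comparisons, *ANGPTL4* in 3, and *HK2* and *PDK3* for depletion with TGFβ), and none changed direction. The alternatives were not independent. No minimum and no threshold on the fold could not end a call, and edgeR and DESeq2 left out siPHF13 replicate 1, as did 1 of the other runs. With no threshold on the fold change the counts were 21, 6, 21, 2 and 1. For depletion without TGFβ, edgeR called 3, all of them among the 8, DESeq2 called 3, of which 2 were among the 8 and the other was *ALDOC*, and for the difference edgeR called 0. Correction for length and GC content added *ALDOC* to both depletion comparisons and took away *PFKL* in both and *ANKRD37* with TGFβ. These count models lacked siPHF13 replicate 1, and the lone siPHF13 library was assumed to vary like the others. DESeq2 also gave *PDK3* at -0.69 without TGFβ (adjusted p = 0.0648). With single libraries left out the counts ranged over 3 to 8, 2 to 4, 6 to 10, 1 throughout and 0 to 1. The lowest came without siPHF13 replicate 1 for depletion without TGFβ, without siControl replicate 2 or siControl_TGFβ replicate 1 for TGFβ in siControl cells, and without any of these 3 for the difference. Without siControl_TGFβ replicate 2, *ANKRD37* was at 0.46 after depletion with TGFβ, and without siPHF13_TGFβ replicate 2 *ANKRD37* was at 0.52 and *PFKL* at 0.55, all uncalled. *CA12* also lost its call without siControl replicate 1 or 2 or either siPHF13 library (adjusted p from 0.0609 to 0.268). With a replicate block the counts were 7, 3, 7, 1 and 1. The same replicate number did not pair libraries across groups (correlations of deviations from -0.09 to 0.05).

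Over all 13307 genes, calls numbered 2448, 637, 2726, 179 and 41. Without the threshold on the fold they numbered 6308, 2114, 6712 and 409 in the first 4 comparisons, and for the difference edgeR called 27 and leaving out single libraries gave 12 (without siControl replicate 2) to 111 (without siPHF13_TGFβ replicate 1). At 2 libraries a group, changes of low genes such as *CA12* and *EGLN3* are imprecise, with standard errors of 0.53 and 0.33.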
